A study of Mus musculus with 2 samples.

Results

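The genes of glucose breakdown and of the mitochondrial respiratory chain were compared between a pair of neural progenitor lines, one overexpressing the green fluorescent protein EGFP and the other the transcription factor Pax6. The members were chosen by the names printed on the array. The oxidative set holds genes with names typical of subunits of complexes I to V (names beginning with Ndufa, Ndufb, Ndufc, Ndufs or Ndufv and a digit, Sdha to Sdhd, Uqcr, Cox4 to Cox8 and Atp5), which gave 80 genes. Subunits with other names, such as Ndufab1 and Cyc1, are left out. The glycolysis set holds listed glucose transporters, glycolytic enzymes, lactate dehydrogenases and pyruvate dehydrogenase kinases, which gave 21 genes, so that the 2 sets together are 101 of the 27931 genes on the array. No probe carried the listed name Pkm, and pyruvate kinase was read under its older name Pkm2. The names also took in Cox4nb (now Emc8), Atp5s (now Dmac2l) and Cox7a2l, which are not subunits of the complexes under whose prefix they are listed. Ndufa4 is counted with complex I by its name, though it has since been reassigned to cytochrome oxidase.

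Glycolysis splits glucose into pyruvate in the cytosol and makes a little ATP directly, and lactate dehydrogenase can turn the pyruvate into lactate. In the mitochondrion, complexes I to IV pass electrons to oxygen and pump protons across the inner membrane, and complex V, the ATP synthase, makes ATP as the protons return. Pyruvate dehydrogenase kinases inhibit pyruvate dehydrogenase, which turns pyruvate into acetyl-CoA inside the mitochondrion. Pluripotent cells are known to rely on glycolysis more than many differentiated cells do, and a move from respiration towards glycolysis is a known feature of reprogramming.

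Both lines derived from N31, a neural progenitor line of mouse strain 129/Ola made from primary induced pluripotent stem cells, which traced back to NSEB5-2C. In it doxycycline switches on the reprogramming factors Klf4, c-Myc, Sox2 and Oct3/4. The added EGFP or Pax6 was driven by a CAG vector brought in with the Tol2 transposon, so the EGFP and the Pax6 line share the inducible factors and differ, by the labels, in the overexpressed protein. RNA of both was taken 24 h after doxycycline, a time at which a visible change of cell shape was noted for the EGFP line alone. Each group is 1 array of 1 line, and no source used here says whether a line is a clone or a pool. No test between lines was therefore possible, and every error given after ± is the scanning software's own error of the signals on these arrays.

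Between 64.7% (EGFP) and 67.2% (Pax6) of the 43379 non-control spots exceeded background clearly, and none was saturated. The Pax6 probe gave signals of 557 with EGFP and 822 with Pax6, a log2 difference of 0.35 ± 0.20, and whether it also reads the introduced copy is not known here. Over all genes, 5.98% were higher with Pax6 by 1.5-fold or more and 7.68% lower. Of 12 neural progenitor markers above background, 2 were higher by that much (Sox2 and Sox9) and 3 lower (Nes, Slc1a3 and Cd24a). Hes5 was not well above background, and Sox2 is also one of the inducible factors. Whether the Sox2 probe reads the introduced copy is not known here. Sums of marker signals are given in units of each array's 75th percentile, EGFP first. Those 12 progenitor markers summed to 127 and 133, a sum carried by Vim, and without Vim to 10.4 and 5.35. Of 9 epithelial markers above background, 8 were lower with Pax6 by 1.5-fold or more, and their sums were 76.8 and 27.1, with Esrp1 and Ocln not well above background. Fibroblast and mesenchymal markers were mixed, with 3 of 8 higher and 3 lower, and their sums of 111 and 63.1 became 4.61 and 16.2 without Col1a2. Of 7 neuron markers 6 lay below 0, with sums of 14.7 and 14.5, and 8.51 and 6.41 without Nefl. By 1.5-fold or more 2 of them were lower and 0 higher, and Dcx was not well above background. By the same rule 1 of 5 oligodendrocyte markers was lower and 0 higher, and 3 of 5 astrocyte markers were higher and 0 lower. Of 7 pluripotent markers 2 were lower and 0 higher. Oligodendrocyte markers (Mog and Olig2 not well above background) summed to 6.47 and 4.91. Astrocyte markers (Slc1a2 not well above background) summed to 2.56 and 3.17, and pluripotent markers to 0.54 and 0.41. Endothelial markers summed to 0.045 and 0.048 with Pecam1 and Cdh5 not well above background, and blood and microglial markers to 0.41 and 0.30 with Ptprc, Aif1 and Itgam not well above background. The part of these cell type markers in the results given here was not tested, and in bulk RNA fewer cells of a type and less RNA per cell cannot be told apart.

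Signals are the software's processed spot brightness, which is not matched between arrays. For every comparison, the log2 of the signal was therefore taken relative to the array's 75th percentile (854 for EGFP, 991 for Pax6), and a difference is the Pax6 value minus the EGFP value on that log2 scale. A gene was read by its brightest probe. All but 2 oxidative genes and all 21 glycolysis genes were well above background, and each of these 99 genes was so on both arrays. The exceptions were Cox4i2, a cytochrome oxidase subunit known from lung, with signals of 6.07 and 6.53, and Cox8b, known from heart and muscle, with 2.54 and 7.84.

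Differences between the lines were small in both sets and of both signs. The 78 measured oxidative genes had a median log2 difference of -0.05, with the middle 50% between -0.12 and 0.01. Of these, 57 lay below 0 and 21 above. The 21 glycolysis genes had a median of 0.05, with the middle 50% between -0.08 and 0.18, and 14 lay above 0 and 7 below. All 18672 genes used on these arrays had a median of -0.01 and a middle 50% from -0.21 to 0.15.

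No oxidative gene differed by 1.5-fold or more in either direction. In the glycolysis set none was higher by that much and 2 were lower, Pfkp and Eno2. Over all genes, the share 1.5-fold or more higher was 5.98% and the share lower by as much was 7.68%. Among the 1868 genes in the brightest 10% of the array, where 71 of the 99 measured members lie, only 30 were higher and 14 lower by that much. At 2-fold no member of either set was past the rule, against 2.39% of all genes higher and 2.4% lower. Of the 2550 genes past 1.5-fold, 43.8% were higher on the Pax6 array, a share that was 55.2% when arrays were scaled to their medians. In 63 of 78 oxidative genes (80.8%) and 13 of 21 glycolysis genes (61.9%) the difference was within its measurement error, against 59.4% of all genes and 82.2% of the brightest 10%. The oxidative share is thus close to that of the bright genes. The measurement error was near 0.20 for most genes (median 0.20 over all genes), so this rule is close to a fixed cut on the difference.

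**Figure D1:**
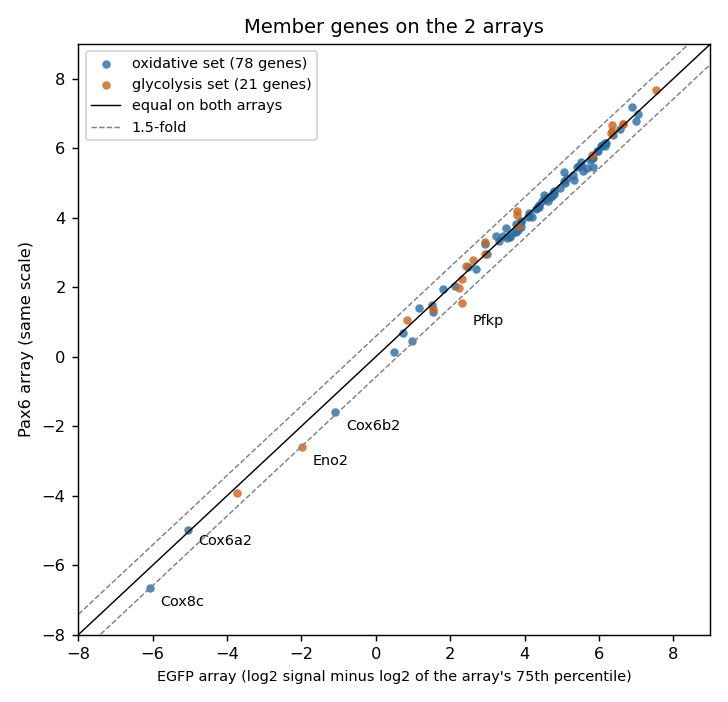
Scaled log2 signal of each member gene on the EGFP array (horizontal axis) and on the Pax6 array (vertical axis), blue for the 78 oxidative and orange for the 21 glycolysis genes, with the line of equal values and dashed lines at 1.5-fold. Members lie along the line of equality over the whole range of brightness, and only Pfkp and Eno2 fall past the lower dashed line.

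The direct comparison of the sets gave a difference of medians of 0.10 (glycolysis minus oxidative). The sets overlapped over most of their range. Of the oxidative genes, 13 lay above the glycolysis median, and 7 glycolysis genes lay below the oxidative median. At the extremes the glycolysis set reached further, with 3 genes above the highest oxidative gene and 2 below the lowest. Relative to the median of all genes, 25 oxidative genes (32.1%) and 14 glycolysis genes (66.7%) lay above it, against 59.7% of the brightest 10% of genes. The counts of 25 and 14 moved with the scaling and the filter. After quantile normalization they were 15 and 11, and after cyclic loess 14 and 10, while with no filter on dim probes 42 of 80 oxidative genes lay above the all-gene median. The glycolysis median was -0.003 after quantile normalization and -0.002 after cyclic loess. The difference of medians was 0.06 to 0.11 over the 11 settings tried. Scaling that shifts a whole array cannot change it, and the series table held the same values, so those settings do not test it. It was 0.08 after quantile normalization, 0.09 after cyclic loess, 0.11 after normexp and 0.06 with the mean of probes.

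**Figure D2:**
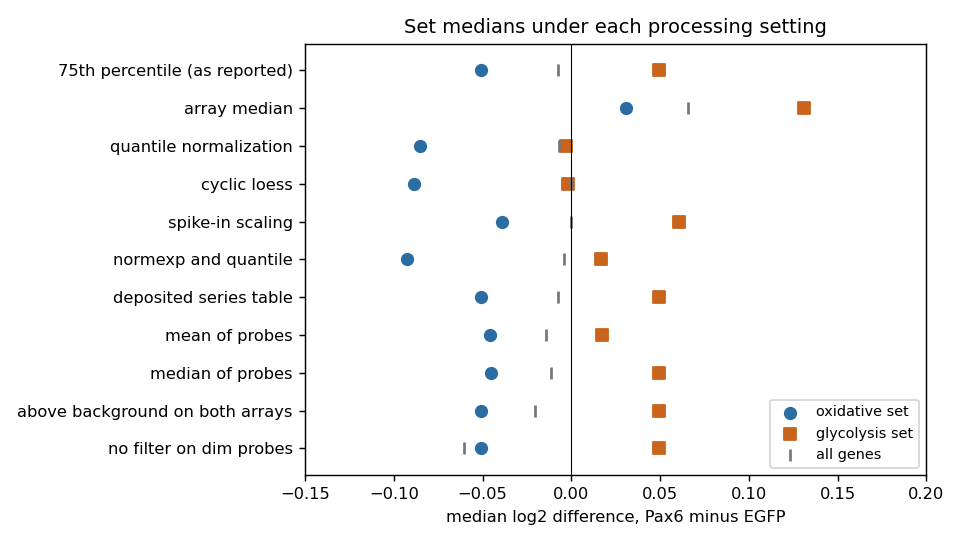
Median log2 difference (Pax6 minus EGFP, horizontal axis) of the oxidative set, the glycolysis set and all genes under each of 11 processing settings (rows). The glycolysis median lies to the right of the oxidative median in each row, by 0.06 to 0.11, and both move across 0 with the scaling. Settings that only shift a whole array cannot change the gap.

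Of the members in the brightest 10%, 61 were oxidative and 10 glycolysis genes. All 1868 genes of that brightness had a median difference of 0.02, with the middle 50% between -0.06 and 0.11, and 1067 lay above 0 and 801 below. The oxidative genes there had a median of -0.05, with 14 above 0 and 47 below. The 10 glycolysis genes there had a median of 0.13, with 9 above 0 and 1 below, the exception being Hk1. The glycolysis genes outside the brightest 10% include all 3 of the genes that differed most towards EGFP, which are Pfkp, Eno2 and Ldhb.

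**Figure D3:**
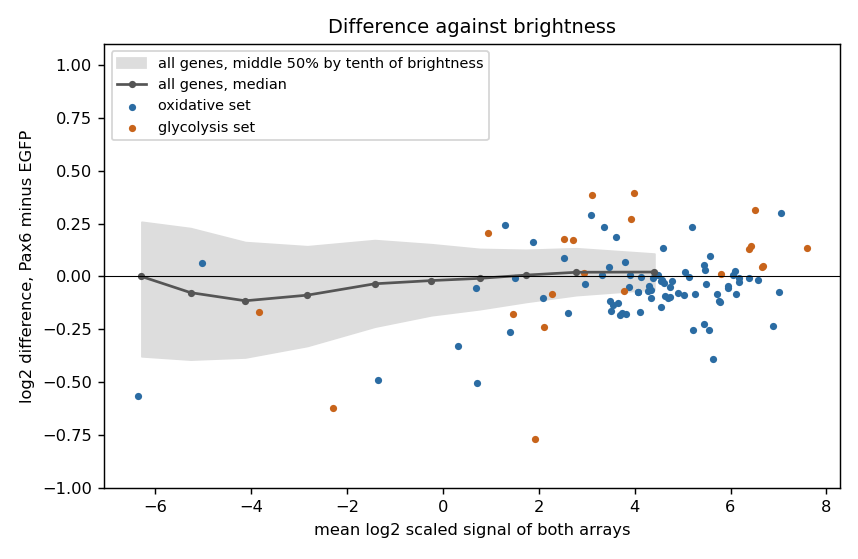
Log2 difference (Pax6 minus EGFP, vertical axis) of each member against its mean scaled log2 signal over both arrays (horizontal axis), with the median and middle 50% of all genes in 10 groups of rising brightness. Members crowd at the bright end, where the middle 50% of all genes spans -0.06 to 0.11, and the dimmer members Pfkp, Eno2, Cox8c, Cox7a1 and Cox6b2 lie lowest.

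Glucose enters the cell through Slc2a1 and Slc2a3, the GLUT1 and GLUT3 transporters. The signal of Slc2a1 was 11810 with EGFP and 18000 with Pax6, a log2 difference of 0.39 ± 0.20 after scaling. Slc2a3 read 11889 and 16645, a difference of 0.27 ± 0.20. Both transporters were higher on the Pax6 array by more than the measurement error, and both stayed so in direction under all 11 settings (Slc2a1 from 0.36 to 0.48 and Slc2a3 from 0.24 to 0.35). The 11 settings are not 11 separate checks. The series table and the filters leave the value of a gene unchanged if its brightest probe exceeded background on both arrays.

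Hexokinase, which traps glucose as glucose 6-phosphate, is encoded by the widely expressed Hk1 and the more regulated Hk2. The signal of Hk2 was 6491 and 9838 on the EGFP and Pax6 arrays, a log2 difference of 0.39 ± 0.20. Hk1 read 12064 and 13340, a difference of -0.07 ± 0.20. At these brightest probes the log2 difference of Hk2 exceeded that of Hk1 by 0.45 ± 0.29. The other measured Hk1 probes read 0.11, 0.22, 0.09 and, for a probe with signals of only 29.0 and 23.1, -0.54. The sign for Hk1, and with it the size of the gap to Hk2, thus depends on the probe.

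Phosphofructokinase, the committed step of the pathway, has muscle (Pfkm), liver (Pfkl) and platelet (Pfkp) isoforms. The brightest Pfkp probe, at chromosome 13, 6475782 to 6477936 on mouse build mm7, read 4243 with EGFP and 2886 with Pax6. That is 1.71-fold lower with Pax6, a log2 difference of -0.77 ± 0.20. It was the lowest difference of either set. A second Pfkp probe at 6482360 to 6482419 read 1006 and 543, a difference of -1.10, while a dim one at 6473188 to 6473247 read 44.6 and 49.0, a difference of -0.08. Pfkm read 6550 and 7690 (difference 0.02) and Pfkl 4613 and 6055 (difference 0.18). The log2 difference of the brightest Pfkp probe lay below that of Pfkm by 0.79 ± 0.29 and below that of Pfkl by 0.95 ± 0.29. Both gaps were more than 2 times the error. Pfkp was at least 1.5-fold lower under each of the 11 settings, from -0.78 to -0.65. The series table, the filters and the median of probes gave its main value unchanged.

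Between hexokinase and phosphoglycerate kinase, the isomerases and aldolases had small differences. Gpi1, which isomerizes glucose 6-phosphate, read 70186 and 90010, a log2 difference of 0.15 with an SD of 0.05 over 9 replicate spots. A dim second Gpi1 probe with signals of 29.9 and 24.7 read -0.49. The aldolases split the 6-carbon sugar, and Aldoa read 157541 and 200872 (difference 0.14) while the brain-enriched Aldoc read 4268 and 4673 (difference -0.08). Tpi1, triose phosphate isomerase, read 68237 and 86643 (difference 0.13). The differences of the brightest probes of these 4 genes were within the measurement error of 0.20.

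Pgk1, phosphoglycerate kinase, makes the first ATP of the pathway, and its probe was printed as 9 spots on each array. The EGFP spots read 64890 to 73614 with a median of 70014, and the Pax6 spots 98431 to 105047 with a median of 99312. On the scaled log2 values the 2 arrays did not overlap, with 6.25 to 6.43 for EGFP and 6.63 to 6.73 for Pax6. The 9 spots of Gpi1 did not overlap either (EGFP up to 6.40, Pax6 from 6.43), though its difference was within the measurement error. The mean difference was 0.32 with an SD of 0.04 over spots, and a second probe read 0.36. Spots of 1 array repeat the measurement and not the cells. Pgk1 kept its sign under the 11 settings, from 0.21 to 0.40.

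In the last steps, Pgam1 read 86155 and 103425 (log2 difference 0.05). Enolase has a general isoform, Eno1, and a neuronal one, Eno2. Eno1 read 5254 and 6881, a difference of 0.17 ± 0.20. The brightest Eno2 probe, at chromosome 6, 124786697 to 124786756 on mm7, read 215 and 162, which is 1.54-fold lower on the Pax6 array with a log2 difference of -0.62 ± 0.21. A second Eno2 probe read 223 and 138, a difference of -0.91. The log2 difference of the brightest Eno2 probe lay below that of Eno1 by 0.80 ± 0.29. Eno2 was at least 1.5-fold lower in 8 of the 11 settings, and not with scaling to the array median (-0.54), cyclic loess or normexp background correction (-0.48). The series table and the filters cannot change the value of Eno2. Of 7 neuron markers above background, 0 were higher and 2 lower by 1.5-fold or more, and their part in the value of Eno2 was not tested.

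Pyruvate kinase and lactate dehydrogenase close the pathway. Pkm2 read 47712 and 55887, a log2 difference of 0.01 ± 0.20, while its second probe read 29235 and 26532, a difference of -0.35. Ldha, the form that favours lactate production, read 85205 and 101882 (difference 0.04). Ldhb, the heart form, read 3994 and 3929, a difference of -0.24 ± 0.20 that was -0.08 after normexp background correction. Ldhb lay below Ldha by 0.28 ± 0.29, which is within the error.

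The pyruvate dehydrogenase kinases went both ways. Pdk1 read 2495 and 2555 (log2 difference -0.18), Pdk2 63.6 and 65.8 (-0.17) and Pdk3 1528 and 2046 (0.21). Only the difference of Pdk3 exceeded its measurement error, and by less than 0.01.

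**Figure D4:**
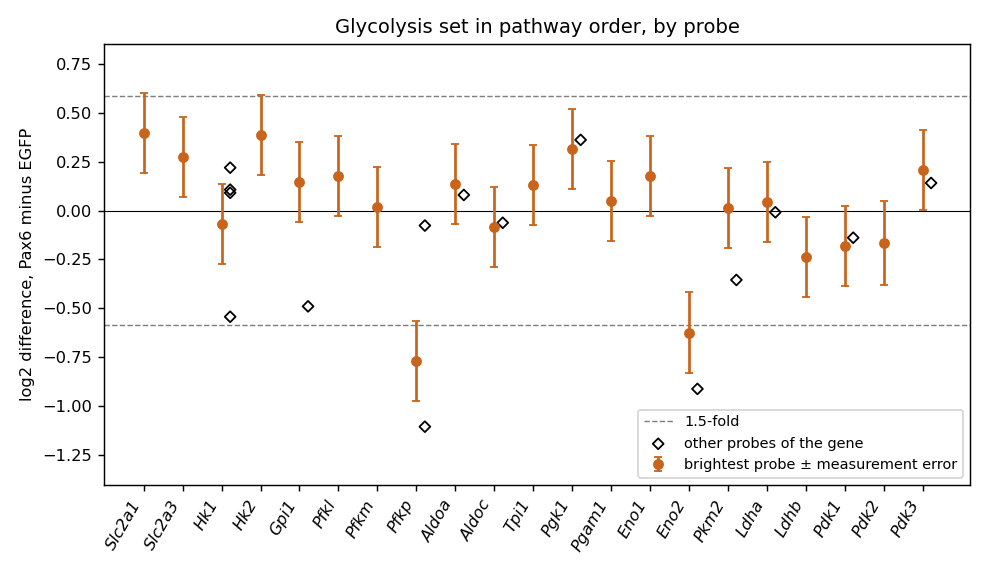
Log2 difference (Pax6 minus EGFP, vertical axis) of each glycolysis gene in pathway order, as the brightest probe with its measurement error (orange) and the other measured probes of the gene (diamonds), with dashed lines at 1.5-fold. Transporters, Hk2 and Pgk1 lie highest at 0.27 to 0.39, and Pfkp (-0.77) and Eno2 (-0.62) lie past the lower dashed line.

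Promoter windows from RefSeq (build GRCm38.p6) were matched for 65 of 80 oxidative and 20 of 21 glycolysis genes. The 250 bases before the start of the genes at either end of the glycolysis set are shown to show what letters the windows hold. They belong to Pfkp (chr13:6648772-6649021, minus strand), Eno2 (chr6:124769674-124769923, minus strand), Hk2 (chr6:82774455-82774704, minus strand) and Slc2a1 (chr4:119108495-119108744, plus strand). Each is written 5′ to 3′ towards the gene, and capitals mark ACGTG or GCGTG, the core of the site bound by hypoxia-inducible factors, or their reverse complements CACGT and CACGC.
Pfkp: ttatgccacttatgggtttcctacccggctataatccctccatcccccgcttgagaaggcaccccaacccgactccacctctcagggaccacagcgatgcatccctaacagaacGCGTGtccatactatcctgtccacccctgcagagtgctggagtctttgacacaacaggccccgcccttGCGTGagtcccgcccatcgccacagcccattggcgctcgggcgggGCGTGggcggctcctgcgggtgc
Eno2: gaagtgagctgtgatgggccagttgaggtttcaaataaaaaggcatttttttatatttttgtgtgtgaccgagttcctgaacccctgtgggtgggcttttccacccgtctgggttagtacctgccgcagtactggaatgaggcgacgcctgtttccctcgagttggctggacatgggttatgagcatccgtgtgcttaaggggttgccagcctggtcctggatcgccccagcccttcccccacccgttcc
Hk2: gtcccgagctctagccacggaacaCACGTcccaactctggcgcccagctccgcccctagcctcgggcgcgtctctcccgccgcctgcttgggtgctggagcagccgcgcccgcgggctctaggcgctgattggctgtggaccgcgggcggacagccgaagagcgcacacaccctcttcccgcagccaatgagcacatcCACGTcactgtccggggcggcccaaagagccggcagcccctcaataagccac
Slc2a1: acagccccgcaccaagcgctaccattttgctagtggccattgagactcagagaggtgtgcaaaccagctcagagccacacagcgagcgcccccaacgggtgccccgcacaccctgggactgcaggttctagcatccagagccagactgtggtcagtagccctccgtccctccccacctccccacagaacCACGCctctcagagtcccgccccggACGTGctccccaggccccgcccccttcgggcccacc
The Pfkp window holds 3 such cores, 136, 68 and 23 bases before the start, and the Eno2 window holds 0. The Hk2 window holds 2, at 226 and 52 bases, and the Slc2a1 window 2, at 61 and 36 bases. These 4 genes were picked for their differences, so nothing is read from their matches.

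In windows from 250 bases before to 50 after the start, on both strands, ACGTG was present in 9 of 20 glycolysis promoters (45.0%) and 17 of 65 oxidative promoters (26.2%), against 19.7% of 27025 windows. GCGTG was present in 10 and 33 (50.8%), against 32.5%. Either was present in 14 (70.0%) and 42 (64.6%), against 43.8%. CACGTG, the E-box bound by Myc and Max, which contains ACGTG, was present in 3 and 6 (9.23%), against 7.24%. CGCATGCG, the core of the site of NRF1, a regulator of respiratory chain genes, was present in 1 glycolysis promoter (5.0%) and 8 oxidative promoters (12.3%), against 1.91% of all windows. These are matches of letters in a window and show no binding.

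By complex, the medians of the oxidative set lay close together. Complex I, NADH dehydrogenase, had 35 measured genes with a median log2 difference of -0.07. Complex II, succinate dehydrogenase, had 4 with a median of -0.02, from Sdhb at -0.14 to Sdha at 0.09. Complex III, the cytochrome bc1 complex, had 7 with a median of -0.02, from Uqcrc1 at -0.10 to Uqcrb at 0.19. Complex IV, cytochrome c oxidase, had 16 measured of 18 with a median of -0.03. Complex V had 16 with a median of -0.08. Beyond the measurement error lay 3 lower and 4 higher genes in complex I, 3 lower in complex IV, 4 lower and 1 higher in complex V, and none in complexes II and III.

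**Figure D5:**
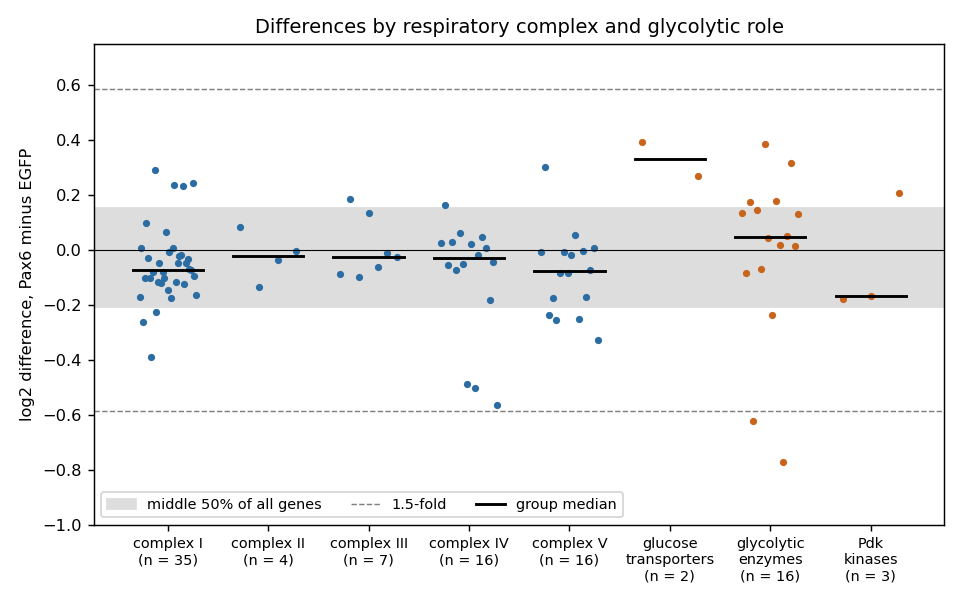
Log2 difference (Pax6 minus EGFP, vertical axis) of each measured gene by respiratory complex (blue) and glycolytic role (orange), with the median of each group as a bar, the middle 50% of all genes in grey and 1.5-fold as dashed lines. The medians of the 5 complexes lie between -0.08 and -0.02, that of the glycolytic enzymes at 0.05 and that of the glucose transporters at 0.33.

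In complex I the lowest gene was Ndufa4, since reassigned to cytochrome oxidase, which read 48771 with EGFP and 43184 with Pax6, a log2 difference of -0.39 ± 0.20. It was among the brightest members and lower on the Pax6 array under all 11 settings, from -0.44 to -0.31. Ndufa11 (-0.26) and Ndufa7 (-0.23) followed, but a second Ndufa7 probe read 0.20. High in complex I were Ndufa6, with signals of 6584 and 9346 and a difference of 0.29 ± 0.20, Ndufs8 (0.24) and Ndufb8 (0.24). Ndufs8 encodes a core subunit of the electron path, and Ndufa6 and Ndufb8 accessory ones. Ndufa13 stood at 0.10.

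In complex IV the low end held the isoforms that replace the general subunits in particular tissues. Cox7a1, the heart and muscle form, read 1664 and 1363, a log2 difference of -0.50 ± 0.20. Cox6b2, a testis form, read 399 and 330, a difference of -0.49 ± 0.20. Cox8c, also a testis form, read 12.6 and 9.92, a difference of -0.56 ± 0.43, close to the lowest signal that counts as above background. All 3 were lower on the Pax6 array, though Cox8c stood at -0.01 after normexp background correction. Their general counterparts stood nearer 0, with Cox7a2 at -0.02, Cox6b1 at -0.05 and Cox8a at -0.04. The gap between Cox7a1 and Cox7a2 was -0.48 ± 0.29, that between Cox6b2 and Cox6b1 -0.44 ± 0.29, and that between Cox8c and Cox8a -0.52 ± 0.48. The muscle form Cox6a2 went the other way, at 0.06 with a dim signal of 25.6 with EGFP, and exceeded Cox6a1 by 0.13 ± 0.33, within the error. Cox4nb, which is not a cytochrome oxidase subunit, was the highest of this group at 0.17.

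In complex V the lowest gene was Atp5s, a factor outside the core enzyme, with signals of 1188 and 1097 and a log2 difference of -0.33 ± 0.20. Atp5e (-0.25) and Atp5c1 (-0.24), which build the central stalk, and the peripheral stalk subunit Atp5j (-0.25) came next. The highest was Atp5b, the catalytic beta subunit, which read 101626 and 145260, a difference of 0.30 ± 0.20. Its other probes read 0.05 and 0.08, and the median of its probes was 0.08, so the value of Atp5b rests on 1 probe. Its partner in the catalytic ring, Atp5a1, read 71646 and 82603, a difference of -0.01. In complex III the highest genes were Uqcrb (0.19) and the core protein Uqcrc2 (0.14), both within the error.

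Of all members, 31 had several probes above background. In 28 the probes lay within 1.5-fold of each other and in 3 they did not (Gpi1, Hk1 and Pfkp). The median range between the probes of a gene was 0.09 on the log2 scale. Probes differed in sign in 12 members, which were Atp5f1, Atp5g2, Atp5h, Gpi1, Hk1, Ldha, Ndufa12, Ndufa7, Ndufc1, Pkm2, Sdha and Uqcrh. Many of these genes have processed pseudogenes, whose transcripts such probes could also read.

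Other genes of the same pathways were read from lists written for this comparison, to be set against the same shares of all genes. Of 18 further glycolytic enzymes and regulators above background, 2 were higher by 1.5-fold or more and 2 lower, with a median log2 difference of -0.06. Eno3, the muscle enolase, read 3382 and 1714, which is 2.29-fold lower on the Pax6 array with a difference of -1.20 ± 0.20, and it was at least 1.5-fold lower in all 11 settings. The series table, the filters and the mean or median of probes left the value of Eno3 unchanged. Pklr, the liver and red cell pyruvate kinase, exceeded background with EGFP alone and was at least 1.79-fold lower with Pax6. Hkdc1, a hexokinase-like gene, exceeded background with Pax6 alone and was at least 2.56-fold higher there. Pgk2, the testis form of phosphoglycerate kinase, read 26.2 and 61.8, which is 2.03-fold higher. Pklr, Hkdc1 and Pgk2 are dim, and after normexp background correction their differences were -0.23, 0.52 and 0.44. Pfkfb3, which makes an activator of phosphofructokinase, read 1237 and 1934 (0.43). The related Pfkfb1 (-0.25), Pfkfb2 (-0.10) and Pfkfb4 (-0.11) lay below 0.

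Lactate leaves the cell through Slc16a1 and Slc16a3, whose differences were 0.30 and 0.21. In the list of 10 genes of monocarboxylate and further glucose transport only these 2 lay above 0 and 8 lay below, with a median of -0.25. Slc16a7 stood at -0.26 and Bsg at -0.07. The dim Slc2a2 (-0.68) and Slc2a12 (-0.65) were at least 1.5-fold lower, against -0.15 and -0.31 after normexp. The genes of pyruvate entry and the citric acid cycle stood close to the respiratory chain, with 0 of 25 past 1.5-fold in either direction, a median of -0.02, and 24 of 25 within the measurement error. Pdha1, the catalytic subunit of pyruvate dehydrogenase, was the exception at 0.26. The pentose phosphate pathway likewise had 0 of 8 past 1.5-fold and a median of -0.02. A list of respiratory chain assembly factors, which also holds Cyc1, Ndufab1, Cycs and Atpif1 (a subunit of complex III, one of complex I, the electron carrier cytochrome c and an inhibitor of complex V), had 0 of 32 past 1.5-fold and a median of -0.09. Of 20 mitochondrial carriers and related genes, 1 was lower, the glycerol 3-phosphate dehydrogenase gene Gpd1 at -0.60 (-0.36 after normexp), with a median of -0.05.

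Regulators of these pathways were also read. Among 18 regulators of mitochondrial biogenesis, 0 were at least 1.5-fold higher and 1 was lower, the coactivator Ppargc1a, dim at 24.3 and 18.8 with a log2 difference of -0.59 that was -0.06 after normexp. Nrf1 stood at 0.29 and the mitochondrial transcription factor Tfam at -0.06. Of 32 hypoxia-inducible factors and targets, 0 were higher and 1 was lower (Ndrg1, 3817 and 2919, -0.60, and -0.52 when scaled to the array median), with a median of 0.10. That list shares 7 genes with the glycolysis set, and without them its median was 0.06. Hif1a read 1960 and 2717 (0.26 ± 0.20), Bnip3 0.29 and Vegfa 0.00. In that list 21 genes lay above 0 and 11 below, among the latter Ddit4 (-0.43) and Adm (-0.38). Of 11 genes of the Myc family and its partners, 1 was lower. Myc, one of the inducible factors, read 25520 and 29158, a difference of -0.02. Whether the Myc probe also reads the introduced copy is not known here. Mycn read 60.2 and 21.1, which is 3.32-fold lower with a difference of -1.73 ± 0.29, and -0.57 after normexp.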

How the data were processed

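Total RNA of both lines was labelled with Cy3 and hybridised to Agilent 1-colour arrays on 1 slide. Per the file headers, the authors read the scans with version 10.7.3.1 of Agilent Feature Extraction. Its processed signal, the deposited intensity used here, has the background subtracted and spatial trends removed on 1 array at a time, and was not matched across arrays. The deposited flags (unit other) mark spots well above background (over 13 SD of it), saturated or outlying, per the file headers. The deposited series table held the same intensity values (largest difference 0.0).

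Outlier spots (51 and 52) were left out, keeping 41168 probes. The log2 signal minus the array's 75th percentile was used, replicate spots were averaged, and a gene took its brightest probe among those well above background on at least 1 array. For 1374 of 18672 genes measured on 1 array, the difference is a bound against the lowest signal well above background (10.3 and 9.63). Current symbols were matched by accession for 56.1% of probes, but member names are the array's. Coordinates of probes are those of the array design (mm7), whose gene models were not used here. The probe matched to Gapdh is named MGC68323 on the array, so its value is not given.

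The measurement error is the software's signal error carried to the log2 difference (members 0.20 to 0.43). It was near 0.20 for all but dim genes and so is nearly a constant, not a spread measured for each gene. Over 172 probes with replicate spots the SD of the difference had a median of 0.08 and a 95th percentile of 0.44. The 8 spike-ins above background differed by -0.05 to 0.09. With 1 array per group no test was made. Precision is limited by the number of arrays, and nothing says that the lines were cultured in parallel.

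The members, lists and rules were chosen with earlier results of these data known. Named are all glycolysis genes, the 10 largest oxidative differences in each direction, the extremes of each complex, isoform pairs, members whose probes differ in sign or by over 1.5-fold, and up to 4 genes past 1.5-fold in each list. A gene that this rule would name is not reported here. Pfkfb3, Slc16a1, Slc16a3, Slc16a7, Bsg, Pdha1, Nrf1, Tfam, Hif1a, Bnip3, Vegfa and Atp5a1 are further examples, named after their values had been seen. So are Pfkfb1, Pfkfb2, Pfkfb4, Ddit4 and Adm. The alternatives tried were scaling to the array median, to spike-ins, quantile and cyclic loess (limma 3.58.1), normexp with offset 50, the series table, mean or median of probes, other filters, 2-fold, and 3 non-subunits left out. The steps were tested on simulated data with planted changes of 2-fold or more. That does not test differences as small as those of the 2 sets.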

Additional observations from a re-analysis of the deposited data

How the results depend on the processing

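Scaling to the array median gave an oxidative median of 0.031, a glycolysis median of 0.131 and 1 glycolysis gene at least 1.5-fold lower in place of 2. Cyclic loess and normexp background correction also left 1 such gene, and a 2-fold rule left 0. Oxidative genes above the all-gene median numbered 25 as reported, 15 after quantile normalization, 14 after cyclic loess and 42 with no filter on dim probes, where 1 oxidative gene not well above background (Cox8b) passed 1.5-fold. With no filter the oxidative median stayed at -0.05, while the all-gene median was -0.06 in place of -0.01. The cause of the other changes was not tested. The all-gene median moved by at most 0.07. After normexp the genes past 1.5-fold numbered 983 (526 higher and 457 lower), against 2550, and 5591 with no filter. Of the set and pathway genes named as past 1.5-fold (Pfkp, Eno2, Eno3, Pgk2, Hkdc1, Pklr, Slc2a2, Slc2a12, Gpd1, Ppargc1a, Ndrg1 and Mycn), none changed sign under these alternatives. Some of the alternatives leave the value of many genes unchanged. Cell type markers were not recomputed. No paired analysis was possible because each group has 1 array, and for the same reason no array could be left out. Dim members, such as Cox8c and Cox6a2, lie within a few-fold of the lowest signal above background.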
